A study of Mus musculus with 12 samples.

Results

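miR-203 is a microRNA best known from epithelia. Its hairpin yields 2 mature arms, mmu-miR-203-3p and mmu-miR-203-5p in the files (miR-203-3p and miR-203-5p from here on). They were followed through small RNA libraries of mouse TSC (trophoblast stem cells, which can form the placenta) and mouse ESC (embryonic stem cells, line E14). Both arms are among the 1978 miRNAs of the count files, and only miR-203-3p was among the 206 that passed the filter on low counts. miR-203-3p was chosen by its measured level, which was lower in paused than in control TSC, so its values in TSC are a description and carry no test. The 4 groups are TSC paused by inhibition of the growth kinase mTOR, TSC labelled wild type without that treatment (control), ESC paused in the same way, and ESC labelled wild type (control). The labels used here do not name the inhibitor, its dose or the time of treatment. The study asked which miRNAs change when stem cells enter this dormant, diapause-like state.

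A miRNA is cut from a hairpin by Drosha and Dicer, loaded into an Argonaute protein and guided to messenger RNAs by its seed, bases 2 to 8. In mouse skin, miR-203 is switched on as cells leave the basal layer of the epidermis, where it represses p63 (Trp63), a transcription factor that maintains epithelial stem cells, and so limits their proliferation. The trophectoderm, from which TSC derive, is itself an epithelium, while ESC derive from the inner cell mass.

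The sequences are shown because the arm that is counted, its seed and a second miRNA read from the opposite strand all bear on what the values mean. They are from RefSeq on GRCm38.p6, written 5′ to 3′. In the hairpin the capitals mark both mature arms, and in every other sequence they mark the seed.
Mir203 hairpin: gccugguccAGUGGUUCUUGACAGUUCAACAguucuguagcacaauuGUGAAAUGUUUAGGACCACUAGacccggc
miR-203-3p: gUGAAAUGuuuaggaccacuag
miR-203-5p: aGUGGUUCuugacaguucaaca
miR-203b-5p: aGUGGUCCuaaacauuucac
miR-203b-3p: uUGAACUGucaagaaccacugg

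The hairpin lies on the plus strand at chr12:112130880-112130955 and is 76 bases long. It is intergenic in the GENCODE vM21 annotation of GRCm38, 3321 bases past the end of Aspg and 15253 bases before Kif26a. miR-203-3p spans chr12:112130927-112130948 and miR-203-5p spans chr12:112130889-112130910. The mature miR-203-3p sequence has 1 locus in the RefSeq table, and no other of the 1679 mature miRNAs in that table has the seed of either arm. miR-203b is annotated on the minus strand of the same place, and the 20 bases of miR-203b-5p are the reverse complement of a stretch of miR-203-3p. Whether the authors counted by strand is not given in the sources used here, and without strand the reads of these 2 could not be told apart. Both arms of miR-203b had 0 counts in all 8 libraries.

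Facts that hold for every value come first. In each group the file labelled replicate 3 was identical to that of replicate 2 at every miRNA, so the pair was counted as 1 sample and n = 2 libraries per group. Nothing in the labels says whether separate cultures were used, so p-values measure only the spread between these samples, which may be technical. In the main fit that spread was pooled over all tested miRNAs rather than taken from each miRNA alone. Total counts were 23652 and 30487 in paused TSC, 115492 and 18725 in control TSC, 73574 and 61749 in paused ESC, and 19266 and 13607 in control ESC. The libraries were shallow: a count of 0 allows up to 3 counts, which is 26.0 CPM at the highest depth and 220 CPM at the lowest (CPM brings each library's counts to a common total). Intervals and such floors cover counting error only. The TSC markers (arms of miR-322, miR-503 and miR-351) summed to 54766 to 68615 CPM in paused TSC and 124655 to 146865 CPM in control TSC, against 673 to 820 CPM in paused ESC and 684 to 1023 CPM in control ESC. The 6 ESC markers (miR-302a-3p, miR-302b-3p, miR-302d-3p, miR-367-3p, miR-17-5p and miR-19a-3p) summed to 24510 to 25009 CPM in paused TSC and 14927 to 28624 CPM in control TSC, against 78485 to 80578 CPM in paused ESC and 59064 to 77648 CPM in control ESC. That sum was carried by miR-19a-3p and miR-17-5p, and miR-17-5p did not set the cell types apart in the paused state (14520 CPM in paused TSC and 13358 CPM in paused ESC). The other 4 were nearly absent from paused ESC. miR-302a-3p, miR-302b-3p, miR-302d-3p and miR-367-3p had 0, 3, 1 and 4 counts there, against 8, 28, 22 and 40 counts in control ESC. In TSC they had 0 counts in paused cells and at most 2 each in control cells. The miR-290 cluster, not among these markers, took 65.3% and 65.1% of counts in paused ESC and 64.6% and 62.1% in control ESC. In TSC that cluster took 59.1% and 58.1% in the paused libraries and 55.2% and 48.6% in the control libraries. The TSC markers set TSC apart from ESC in every library, and they were lower in both paused TSC libraries than in both control ones.

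miR-203-3p was counted 13 and 17 times in the 2 paused TSC libraries and 241 and 40 times in the 2 control TSC libraries. As a share of all counts these are 549.6 CPM (95% exact binomial interval 293 to 940) and 557.6 CPM (325 to 893) in paused TSC, against 2087 CPM (1832 to 2367) and 2136 CPM (1527 to 2908) in control TSC. Both paused libraries were below both control libraries, and the intervals of the states did not overlap. This is the difference that miR-203-3p was chosen for, so the separation is no test of it. The libraries of each state were nearly equal although the control libraries differ widely in depth.

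In ESC, miR-203-3p was counted 12 and 10 times in the paused libraries and 1 and 2 times in the control libraries. These are 163 CPM (84.3 to 285) and 162 CPM (77.7 to 298) in paused ESC, against 51.9 CPM (1.31 to 289) and 147 CPM (17.8 to 531) in control ESC. Both paused libraries were above both control libraries, but the counting intervals overlapped widely, and both control counts lie under the floor of 3.

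**Figure D1:**
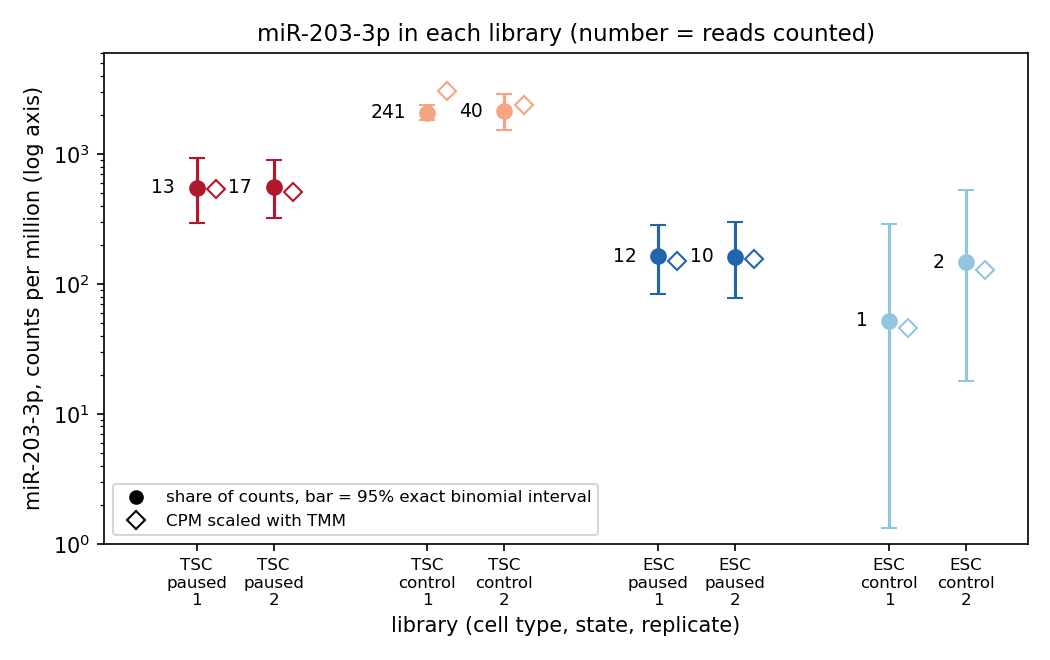
Level of miR-203-3p in each of the 8 libraries, in CPM on a log axis; filled circles are unscaled shares with 95% exact binomial intervals, open diamonds are CPM scaled with TMM, and the numbers are counts. The control TSC libraries are the highest at 241 and 40 counts, and the intervals of all 4 ESC libraries overlap.

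Scaled with TMM (the trimmed mean of M-values, which corrects for differences in composition), miR-203-3p averaged 526 ± 16.4 CPM in paused TSC, 2739 ± 468 CPM in control TSC, 152 ± 3.57 CPM in paused ESC and 86.7 ± 58.2 CPM in control ESC (SD, n = 2 each). The order from high to low was control TSC, paused TSC, paused ESC, control ESC, and no library crossed from one group to the next. The step from paused to control ESC is not beyond its error, as tested below. By rank of count, miR-203-3p was number 96 of 326 and 107 of 349 detected miRNAs in paused TSC, and number 44 of 482 and 49 of 309 in control TSC. It was number 174 of 416 and 178 of 405 in paused ESC, and number 276 of 359 and 196 of 318 in control ESC. The ranks, which need no scaling, give the same order of cell types.

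At similar levels stood other miRNAs of middling abundance, though levels between miRNAs also carry bias from library preparation and amplification. In paused TSC the nearest by mean CPM were miR-140-5p (530 CPM) and miR-181c-5p (528 CPM) above and miR-503-3p (508 CPM) and miR-28a-3p (480 CPM) below. In control TSC they were miR-466g (3124 CPM) and miR-210-3p (3017 CPM) above and miR-335-5p (2605 CPM) and miR-297c-5p (2539 CPM) below. In paused ESC they were miR-28a-3p (166 CPM) and miR-532-5p (155 CPM) above and miR-3473b (147 CPM) and miR-142a-3p (137 CPM) below. In control ESC, where these levels rest on very few counts, they were miR-200a-3p (100.3 CPM) and miR-297c-5p (95.9 CPM) above and miR-328-3p (86.7 CPM) and miR-450b-3p (77.5 CPM) below.

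In paused relative to control TSC, the fitted log2 fold change of miR-203-3p was −2.40 ± 0.42 (SE), a 5.28-fold lower level. By pooled counts, control TSC held 3.78 times the paused level (95% counting interval 2.59 to 5.71) scaled by total count and 5.64 times (3.86 to 8.52) scaled with TMM. With TMM the median of all 206 tested miRNAs lay at −0.39. Relative to that median miR-203-3p stood at −2.01. Over 19 alternative settings the fold change ran from −2.77 to −1.92. The value relative to the median ran from −2.16 to −1.95, but a change of scaling shifts all miRNAs alike and so cannot move it. Leaving out any 1 of the 8 libraries gave a fold change of −2.09 to −1.94. The main value of −2.40 lies outside that range. It moved even when the library left out was one of ESC, which holds no TSC counts. The TMM factor was 0.68 in control TSC replicate 1 and 0.89 in control TSC replicate 2. The direction of the fold change held in every setting, but its size of 5.28-fold depends on the setting. The cause of the shift was not tested. Both paused libraries lay below both control libraries for 35.9% of tested miRNAs in TSC, and above them for 12.6%.

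By fold change in TSC, miR-203-3p was the 22nd lowest of 206. Of the 21 lower ones, 17 had at most 3 counts in paused TSC, and miR-5126 alone had 30 or more. Its neighbours in that order were miR-5126 (−2.50) and miR-411-3p (−2.45, 2 counts in paused against 20 in control TSC) on the lower side, and miR-6240 (−2.35) and let-7i-5p (−2.32, 6 counts in paused against 53 in control TSC) on the other. miR-5126 and miR-6240 belong with miR-2137 and miR-5099 to 4 entries of doubtful origin, whose reads may stem from fragments of other RNAs. These 4 entries took 3.09% and 3.44% of counts in paused TSC and 9.67% and 13.6% in control TSC, against 1.90% and 3.26% in paused ESC and 3.17% and 2.73% in control ESC. With them left out, a setting chosen after seeing the data, the fold change of miR-203-3p in TSC was −2.02.

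**Figure D2:**
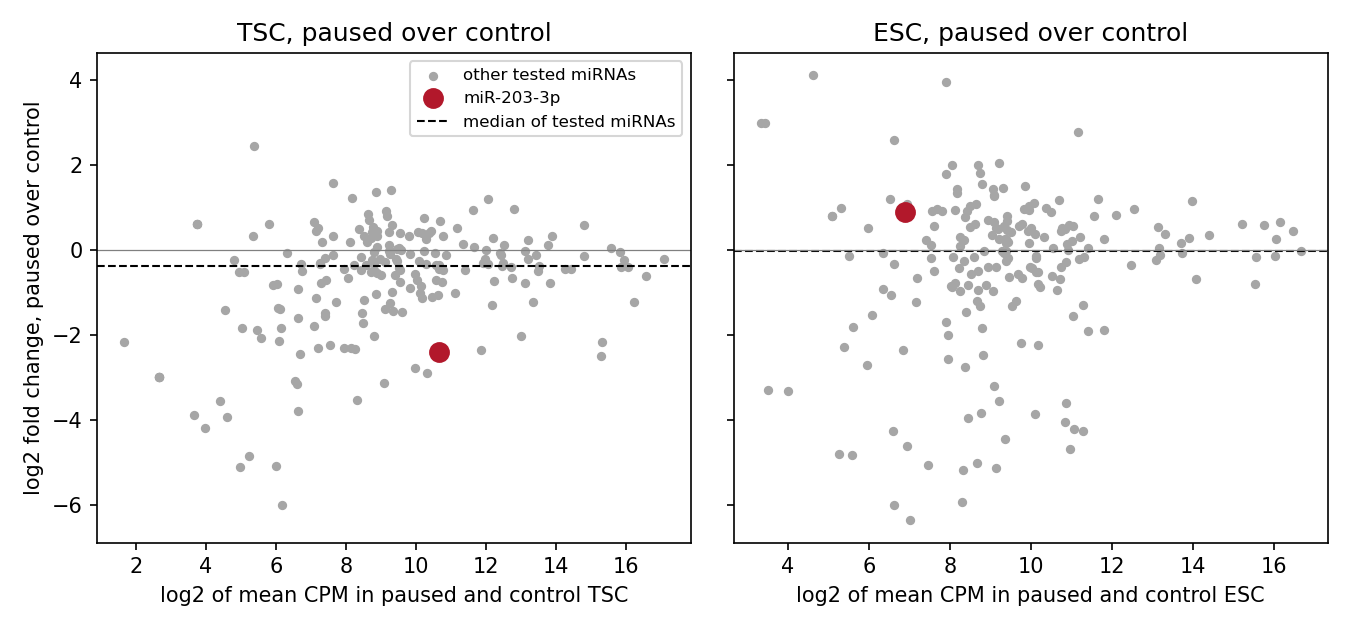
Log2 fold change of paused over control cells against mean level (log2 CPM) for the tested miRNAs, TSC left and ESC right, with miR-203-3p marked and the median drawn as a line; 3 miRNAs in TSC and 2 in ESC had 0 counts in that cell type and are not drawn. miR-203-3p lies at −2.40 in TSC and 0.90 in ESC, against medians of −0.39 and −0.03.

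The ESC libraries took no part in choosing miR-203-3p, so the pause was tested there. The log2 fold change of paused over control ESC was 0.90 ± 0.87 (SE), with a 95% interval of −0.81 to 2.60, and did not pass the threshold (edgeR quasi-likelihood, Benjamini-Hochberg adjusted p = 0.46). The exact two-sided permutation test on CPM gave p = 0.33, the smallest that 2 libraries against 2 allow, for a difference of 65.5 CPM. The pooled counts, 22 in paused and 3 in control ESC, give a ratio of 1.78 (0.535 to 9.30) by total count. For comparison, 27.7% of the tested miRNAs passed in ESC, and both paused libraries lay above both control libraries for 34.5% and below them for 34%. The interval holds no change as well as a rise of up to 2.60 on the log2 scale. Leaving out control ESC replicate 1 gave 0.60 and leaving out control ESC replicate 2 gave 2.02, neither past the threshold.

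Between the cell types, miR-203-3p was higher in TSC than in ESC in both states. In control cells the log2 fold change of TSC over ESC was 5.06 ± 0.63 (SE), a 33.5-fold higher level that rests on only 3 counts in ESC, and 4.23 without control ESC replicate 1 or 5.65 without control ESC replicate 2. The pooled counts put that ratio at 22.9 (7.77 to 112) by total count. In paused cells the log2 fold change was 1.77 ± 0.51, or 3.40-fold, and the pooled counts gave 3.41 (1.90 to 6.20) by total count. Under other settings the paused value ran from 1.04 to 1.80. Both differences use the TSC libraries that chose the miRNA and are given without a test.

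Set against miRNAs of the same library, the order stayed the same in TSC. For every 100 counts on the epithelial list described next, miR-203-3p had 2.83 and 2.51 counts in paused TSC and 9.80 and 8.83 in control TSC, against 1.30 and 1.26 in paused ESC and 0.426 and 1.32 in control ESC. For every 10000 counts of the miR-290 cluster, which is abundant in early mouse embryos and their stem cells, it had 9.29 and 9.59 in paused TSC and 37.8 and 44.0 in control TSC. The corresponding values were 2.50 and 2.49 in paused ESC and 0.803 and 2.37 in control ESC. By both measures the TSC states, whose difference chose the miRNA, did not overlap, while 1 control ESC library was at or close to the paused ESC libraries.

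The other arm, miR-203-5p, was nearly absent. It had 2 counts in control TSC replicate 2 and 0 in the other 7 libraries, including the deepest one, control TSC replicate 1, where 0 allows up to 26.0 CPM. Over all libraries it made up 2 of 338 counts of the hairpin, or 0.592% (95% exact binomial interval 0.0717 to 2.12). Pooled over each group, a count of 0 allows up to 55.4 CPM in paused TSC, 22.2 CPM in paused ESC and 91.3 CPM in control ESC. No comparison of the arms between states was possible at this depth.

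miR-203 was then set beside 16 other miRNAs known for high levels or a role in epithelia, of which 11 passed the filter. They took 1.94% and 2.22% of counts in paused TSC and 2.13% and 2.42% in control TSC, against 1.25% and 1.29% in paused ESC and 1.22% and 1.12% in control ESC. Most of these counts were of miR-34a-5p and miR-183-5p, with 616 and 302 counts in paused TSC and 1816 and 646 in control TSC. In ESC they had 164 and 812 counts in paused cells and 160 and 121 in control cells. The list's shares overlapped between the TSC states. In TSC 1 of the 11 rose, 1 fell and 9 did not pass, where 1.94% of all tested miRNAs rose and 17% fell. Their median log2 fold change was −0.46, against −0.39 over all tested miRNAs.

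The miR-200 family (miR-200a, miR-200b, miR-200c, miR-141 and miR-429) holds cells in an epithelial state by repressing Zeb1 and Zeb2. In TSC, miR-141-3p rose to 673 ± 74.8 CPM in paused cells, against 254 ± 18.9 CPM in control cells (log2 fold change 1.37, edgeR adjusted p = 0.030). miR-429-3p fell to 339 ± 222 CPM in paused TSC, against 779 ± 250 CPM in control TSC (log2 fold change −1.38, edgeR adjusted p = 0.026). These 2 calls go opposite ways within 1 family. DESeq2 called neither, and of 19 alternatives 12 called miR-141-3p and 3 called miR-429-3p. Scaled by total count, 14 of 206 miRNAs rose and 12 fell in TSC, against 4 and 35 with TMM.

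In ESC 4 of the 11 rose, 1 fell and 6 did not pass, where 8.25% of all tested miRNAs rose and 19.4% fell. The median log2 fold change was 0.83, against −0.03 over all tested. miR-200a-3p rose to 433 ± 22.1 CPM in paused ESC, against 100.3 ± 51.5 CPM in control ESC (log2 fold change 2.00, edgeR adjusted p = 0.019). miR-200b-3p (1.80, adjusted p = 0.016) and miR-429-3p (1.28, adjusted p = 0.037) of the same family also rose, as did miR-31-5p (1.43, adjusted p = 0.024), a miRNA of skin and hair follicles. However, miR-200b-3p, miR-31-5p and miR-200c-3p passed the filter on low counts only through the paused ESC libraries. Of these, miR-200c-3p was not called (log2 fold change 1.77, edgeR adjusted p = 0.088). Their higher levels in paused ESC are thus partly built in, and so are the list's number of rises and its median in ESC. miR-34a-5p, a miRNA induced by p53, fell to 1145 ± 174 CPM in paused ESC, against 4288 ± 263 CPM in control ESC (log2 fold change −1.90, edgeR adjusted p = 1.82e-06). Of these 5, DESeq2 called miR-34a-5p alone, and it called miR-183-5p, a miRNA of sensory epithelia, in addition (adjusted p = 0.011, against 0.059 by edgeR). Over 19 alternatives miR-34a-5p was called in all 19, miR-200a-3p in 16, miR-200b-3p in 15, miR-31-5p in 13 and miR-429-3p in 10, and without paused ESC replicate 1 miR-34a-5p was the only call on the list. Over all 206 tested miRNAs in ESC, 17 rose and 40 fell with TMM, 29 rose and 37 fell with median-of-ratios scaling, and 41 rose and 33 fell with TMM factors that left out the miR-290 cluster, so the balance of rises and falls depends on the scaling.

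**Figure D3:**
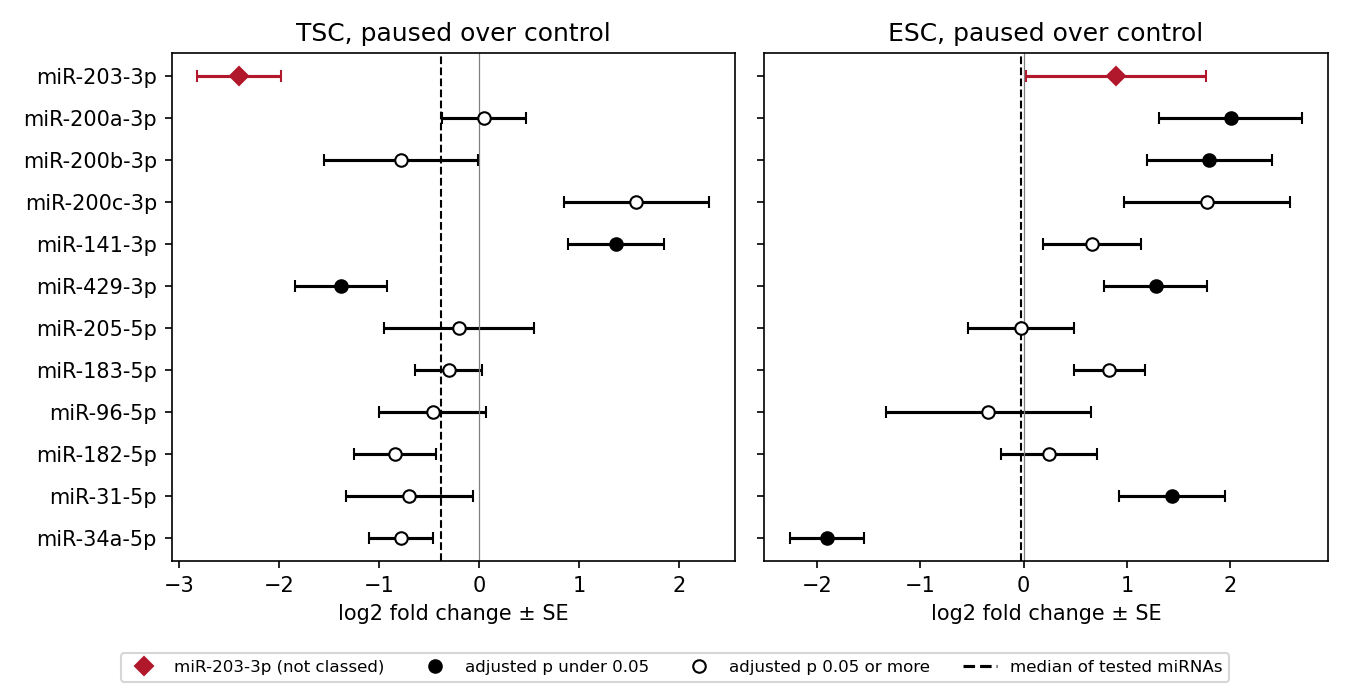
Log2 fold change with SE of paused over control cells for miR-203-3p (diamond) and the 11 tested miRNAs of the epithelial list, TSC left and ESC right; filled circles passed an adjusted p of 0.05 and the dashed line is the median of 206 tested miRNAs. In TSC 1 of the 11 rose and 1 fell, in ESC 4 rose and 1 fell, and miR-203-3p, chosen for its TSC value, is drawn at −2.40 and 0.90.

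Markers of other cell types did not all follow miR-203-3p. The arms of miR-205, the other miRNA typical of stratified epithelium, summed to 90.7 to 207 CPM in paused TSC and 153 to 241 CPM in control TSC, against 436 to 495 CPM in paused ESC and 320 to 592 CPM in control ESC. They were higher in ESC, opposite to miR-203-3p, and overlapped between the states. Both arms of miR-126a, typical of endothelium, summed to 1845 to 2273 CPM in paused TSC and 2943 to 3070 CPM in control TSC, and to 960 to 975 CPM in paused ESC and 831 to 911 CPM in control ESC, so their sum followed the same order of groups as miR-203-3p. The arms differed in ESC, where miR-126a-3p averaged 481 CPM in paused and 639 CPM in control cells and miR-126a-5p averaged 486 CPM in paused and 233 CPM in control cells. Of 6 fibroblast markers, 2 were detected in paused TSC (151 to 413 CPM) and 4 in control TSC (301 to 943 CPM), with 3 in paused ESC (851 to 973 CPM) and 2 in control ESC (703 to 1003 CPM), and both arms of miR-199a were at 0 in every library. Blood markers were at most 41.3 CPM in paused TSC and 178 CPM in control TSC, against 4610 to 5212 CPM in paused ESC and 7839 to 9714 CPM in control ESC, with miR-223-3p at 0 in every library. That sum joins members that went opposite ways in ESC. miR-150-5p averaged 4527 CPM in paused and 1933 CPM in control ESC. miR-142a-3p averaged 137 and 2067 CPM, and miR-142a-5p 241 and 4744 CPM, in the same order. Of 3 gut and liver markers, 1 (miR-192-5p) was detected, at 151 to 165 CPM in paused TSC and 51.0 to 60.2 CPM in control TSC, against 92.8 to 162 CPM in paused ESC and 137 to 256 CPM in control ESC. The part of other cells, of the TSC markers' own lower level and of the doubtful entries in the difference of miR-203-3p was not tested. In bulk libraries fewer cells that hold a miRNA and less of it per cell cannot be told apart.

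The miRNAs whose levels ran most like those of miR-203-3p were let-7g-5p, let-7d-5p, miR-101a-3p, miR-210-3p and miR-2137. Their sequences show that the 2 let-7 members share a seed and that none has the seed of miR-203-3p.
let-7g-5p: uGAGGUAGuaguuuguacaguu
let-7d-5p: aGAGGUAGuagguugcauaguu
miR-101a-3p: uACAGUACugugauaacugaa
miR-210-3p: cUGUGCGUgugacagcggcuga
miR-2137: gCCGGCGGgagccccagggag

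Pearson's r of log2 CPM over the 8 libraries, which differ in cell type and depth, was 0.952 for let-7g-5p, 0.938 for let-7d-5p, 0.934 for miR-101a-3p, 0.930 for miR-210-3p and 0.929 for miR-2137. Of the 205 other tested miRNAs, 10 had r above 0.9. let-7 miRNAs accumulate as cells differentiate and are held back by Lin28, and miR-210 is induced by hypoxia. let-7g-5p averaged 1047 CPM in paused TSC and 2146 CPM in control TSC, against 236 CPM in paused ESC and 155 CPM in control ESC. miR-210-3p averaged 1447 CPM in paused TSC and 3017 CPM in control TSC, against 130.2 CPM in paused ESC and 54.7 CPM in control ESC. The log2 fold changes in TSC were −1.06 for let-7g-5p, −1.44 for let-7d-5p, −0.66 for miR-101a-3p, −1.02 for miR-210-3p and −2.16 for miR-2137. These miRNAs were picked for following miR-203-3p over libraries that include the TSC ones. Their falls in TSC are thus partly built in, and like that of miR-203-3p they are given without a test.

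**Figure D4:**
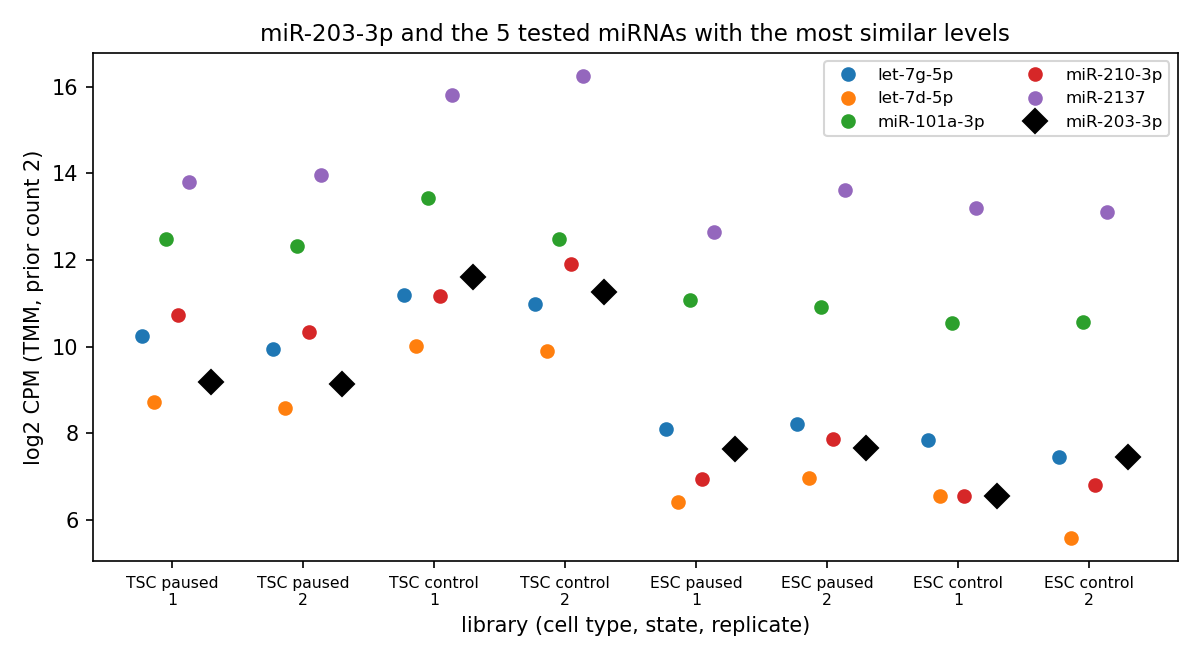
Level of miR-203-3p (black diamonds) and of the 5 tested miRNAs with the highest Pearson's r to it in each of the 8 libraries, in log2 CPM with a prior count of 2; points of a library are set side by side. All 6 are highest in the control TSC libraries on average.

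**Figure D5:**
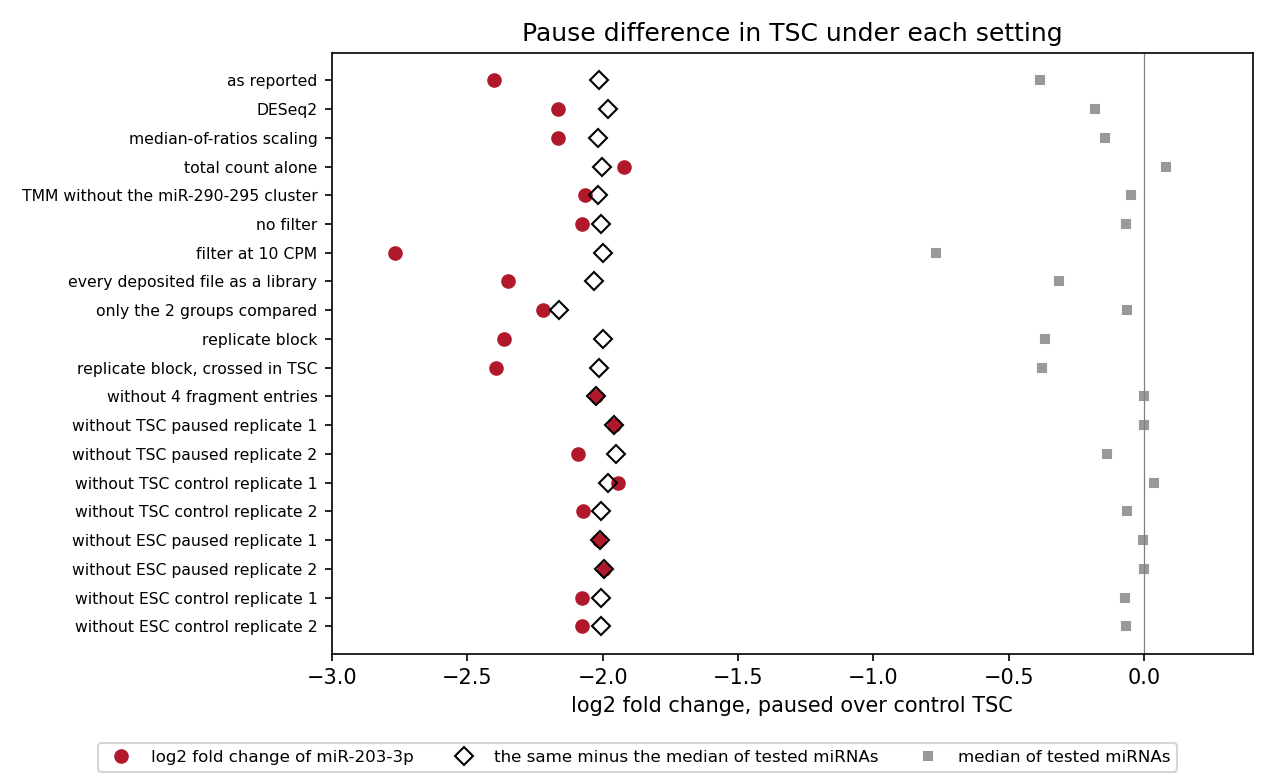
Log2 fold change of miR-203-3p in paused over control TSC (red circles), the median of all tested miRNAs (grey squares) and their difference (open diamonds) under each setting. The fold change runs from −2.77 to −1.92 and the difference from −2.16 to −1.95, which a change of scaling can hardly move because it shifts all miRNAs nearly alike.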

How the data were processed

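The deposited files hold raw counts per mature miRNA, and the submitters' processing notes name the build GRCm38. Not given in the sources used here are the aligner, counting tool, miRNA annotation, strand setting and treatment of multi-locus reads. Per the labels' protocols, the SMARTer smRNA-seq kit was used on 10 ng of RNA with 12 PCR cycles, for single-end reads of 75 bp and about 15M reads per sample. No molecular identifiers are mentioned.

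Identical files were counted once. Counts were analysed with edgeR 4.0.16 (R 4.3.3), with TMM scaling and filterByExpr (minimum count 10, about 369 CPM, 206 of 1978 miRNAs kept, which hold at least 98.1% of each library's counts). All 4 groups entered 1 quasi-likelihood fit with 4 residual degrees of freedom. The common dispersion was 0.0456, and the spread was fully pooled over miRNAs. The threshold for a call was a two-sided adjusted p (Benjamini-Hochberg) under 0.05. The fit was tested on simulated data. CPM means are TMM-scaled with their SD.

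The members and lists were chosen with earlier results of these data known. Named miRNAs are both arms of miR-203 and of miR-203b, the tested epithelial list, the 5 highest Pearson correlations, and the 2 neighbours on each side in fold change and level; other names were chosen after their values were seen. Sequences were matched by name for 1679 of 1978 miRNAs. Alternatives were DESeq2 1.42.0, other scalings and filters, every file as a library, 2 groups alone, the replicate block, and each library left out.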

Additional observations from a re-analysis of the deposited data

Results flagged for a closer look

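miR-203-3p lay on opposite sides of its controls in the 2 cell types. Both paused TSC libraries were below their controls and both paused ESC libraries were above theirs. Of all tested miRNAs, 35.9% lay below in this way in TSC and 34.5% lay above in ESC. The log2 pause effect of miR-203-3p in TSC minus that in ESC was −3.30. That difference was not tested, because miR-203-3p was chosen for the TSC part of it. The ESC part rests on 3 counts in control ESC and did not pass the threshold (edgeR adjusted p = 0.46).

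Among the epithelial list, 3 miRNAs had pause effects that differed between TSC and ESC by the interaction term in edgeR. The differences on the log2 scale were −2.66 for miR-429-3p (adjusted p = 0.0011), −2.58 for miR-200b-3p (adjusted p = 0.038) and −2.13 for miR-31-5p (adjusted p = 0.038). Of the alternatives, 14 of 18 called miR-429-3p, 4 of 17 called miR-200b-3p and 5 of 17 called miR-31-5p. Without control TSC replicate 1 the difference of miR-31-5p was 0.067. Both miR-200b-3p and miR-31-5p passed the filter on low counts only through the paused ESC libraries, so their differences are partly built in.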

How the results depend on the processing

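The fold change of miR-203-3p in paused over control ESC stayed positive and uncalled in every alternative that could be fitted, at 0.60 to 2.02 with 1 library left out (edgeR adjusted p 0.26 to 0.73) and 0.68 to 1.29 otherwise. In the fit on the 2 ESC groups alone it did not pass the filter. In TSC it was −1.92 by total count, −2.07 with TMM factors that left out the miR-290 cluster, −2.08 with no filter, −2.77 with a 10 CPM filter and −2.02 without the 4 doubtful entries (added after seeing the data), and −2.09 to −1.94 with 1 library left out. Control TSC over ESC was 4.23 to 5.65 with 1 library left out. Paused TSC over ESC was 1.38 by DESeq2, 1.37 with median-of-ratios scaling, 1.04 without the cluster, 1.44 with no filter, 1.13 with a 10 CPM filter, 1.58 with 2 groups, 1.50 with the replicate block and 1.51 with the crossed block, and 1.55 to 1.78 with 1 library left out. Calls in ESC numbered 57, against 37 by DESeq2, 94 with every file as a library and 41 to 75 with 1 left out; on the epithelial list they numbered 5, against 2, 8 and 1 (without paused ESC replicate 1) to 7, and 3 with the block. Calls in TSC numbered 39, against 16 by DESeq2 or no filter, 24 by median of ratios, 19 without the cluster, with 2 groups or without the doubtful entries, 12 with the block, and 7 (without paused TSC replicate 2) to 32 with 1 left out. List calls in TSC numbered 2, against 0 by DESeq2, no filter or the block, 1 by median of ratios, without the cluster, with 2 groups, with the crossed block or without the doubtful entries, 4 with every file, and 0 to 1 with 1 left out. Leaving out 1 library, the TSC fold change ran from −0.54 to 1.57 for miR-31-5p and from −0.56 to 0.16 for miR-101a-3p, and the interaction of miR-31-5p from −2.66 to 0.067; each reversed without control TSC replicate 1. The cause was not tested.

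In the labels, libraries of the same replicate number share only that number. Their deviations correlated at −0.0715 in ESC and −0.18 in TSC, which with 2 libraries per group cannot show whether they were paired. Crossed pairing in TSC gave 25 calls in TSC and 53 in ESC. Depth limits miR-203-3p in ESC, and miR-203-5p everywhere.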

Other observations

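Of 53 mature miRNAs with more than 1 locus in the RefSeq table, 8 (15.1%) had a count in any library, against 536 of 1626 (33.0%) with 1 locus, a difference that was not tested. miR-203-3p is among those with 1 locus.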
